A study of Homo sapiens with 72 samples.

Results

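The H3K4me3 profiles of 2 untreated human B-lineage cell lines, Raji and REH, were compared over 6 of the 72 libraries of the series, 3 of each line, chosen by cell line, antibody and the absence of treatment. The series profiled Raji, REH and a second precursor B leukemia line, NALM6, by CUT&Tag, in which an antibody directs a transposase to a histone mark and the cut DNA is sequenced. Antibodies to H3K4me2, H3K4me3 and H3K27me3 and an IgG control were used, each in cells grown without drug and in cells given 1 nM bryostatin, a protein kinase C modulator. Raji is an Epstein-Barr virus positive line from a Burkitt lymphoma, a tumor of germinal center B cells, and REH is a line from an acute leukemia of precursor B cells that carries the ETV6-RUNX1 fusion. Each disease was thus represented by 1 established line, so a difference between the diseases and a difference between these lines cannot be told apart. Neither the labels nor the methods state that the 3 libraries of a line came from separate cultures, and the p-values therefore measure the spread between these libraries, which may be technical.

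H3K4me3 is deposited by SET1 and MLL complexes around the starts of genes that are transcribed or poised for transcription, and its breadth and height are greatest at housekeeping genes and at the identity genes of a cell type. H3K4me2 marks the same starts and also enhancers, whereas H3K27me3 is laid down by Polycomb complexes at silent developmental genes. During B cell development, the recombinase genes and the surrogate light chain are used in precursor cells, and receptors for antigen, T cell help and homing are used in mature and germinal center cells.

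Peaks were called in each library by the authors with SEACR, and each peak carried the total of its RPKM-normalized signal. The 3 Raji libraries held 12786, 10286 and 9952 peaks and the 3 REH libraries 11809, 7509 and 9230, on about 47.9 M, 20.1 M and 21.0 M and 27.9 M, 18.8 M and 10.2 M mapped reads (M, 1e6), as read from the RPKM value of 1 read. A peak lay within 1 kb of an annotated start in 53.2% ± 1.08 of 19962 protein-coding genes in Raji and 50.1% ± 8.0 in REH (SD, n = 3; exact permutation test, p = 0.7, where 0.1 is the smallest p that 3 against 3 can give). The mean signal per called base was 420 ± 74.1 RPKM in Raji and 577 ± 102 RPKM in REH (exact permutation p = 0.1). The lines all but touched, as the highest Raji library had 467.8 RPKM and the lowest REH library 468.2 RPKM. The smallest total listed differed between libraries. As multiples of the median shared region of the same library, it was 0.0148, 0.0640 and 0.0743 in Raji and 0.0536, 0.440 and 0.241 in REH, so weak starts could be listed in all Raji libraries and in REH replicate 1 but not in REH replicates 2 and 3. The highest of these values in a line (0.0743 in Raji, 0.440 in REH) is called the listing limit of that line below.

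Overlapping peaks of the 6 libraries merged into 13930 regions on chromosomes 1 to 22 and X, of which 6729 (48.3%) were called in all 6 libraries. Over these shared regions the log2 totals correlated between libraries with Pearson's r of 0.955 to 0.991 within a line and 0.636 to 0.681 between lines, as a description across regions, which are not independent. With each library centered on its median, 1604 regions (23.8%) were higher in Raji and 1851 (27.5%) higher in REH by limma at an adjusted p under 0.05. Without centering, when the median region lay -0.20 lower in Raji on the log2 scale, the counts were 200 and 895, and the share of calls higher in Raji went from 46.4% to 18.3%. The uncentered median log2 totals were 19.66, 20.48 and 20.39 in the Raji libraries and 20.47, 20.40 and 20.21 in the REH libraries. The offset was thus that of Raji replicate 1, which also widened the spread within Raji. All differences below are relative to the median region and are given as Raji minus REH.

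Of the protein-coding genes, 7887 had a shared region within 1 kb of a start, and of these 1916 (24.3%) were higher in Raji, 2021 (25.6%) higher in REH and 3950 not called. Centering sets this balance, and without it the numbers were 226 and 924. Differences over 1 on the log2 scale were found at 222 genes (2.81%) higher in Raji and 543 (6.88%) higher in REH. The listing limits moved with the excess on the REH side, and their part was not tested. A Raji value could be as low as 0.0743 multiples and still be listed, whereas a REH value could not be far below 0.440 in every library. A further 427 genes (2.14%) had a peak at their starts in all 3 Raji and no REH library, 519 (2.60%) had one in all 3 REH and no Raji library, and 7687 (38.5%) had none in any library. In 173 of the 427 Raji-only genes the signal was above the REH listing limit in all 3 libraries, against 519 of the 519 REH-only genes and the Raji limit. Another 960 genes had a peak in 3 Raji and 1 REH library, which was replicate 1 in 943 of them, and leaving out that library raised the Raji-only count from 427 to 1385. Presence in Raji alone was therefore read together with the level.

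**Figure D1:**
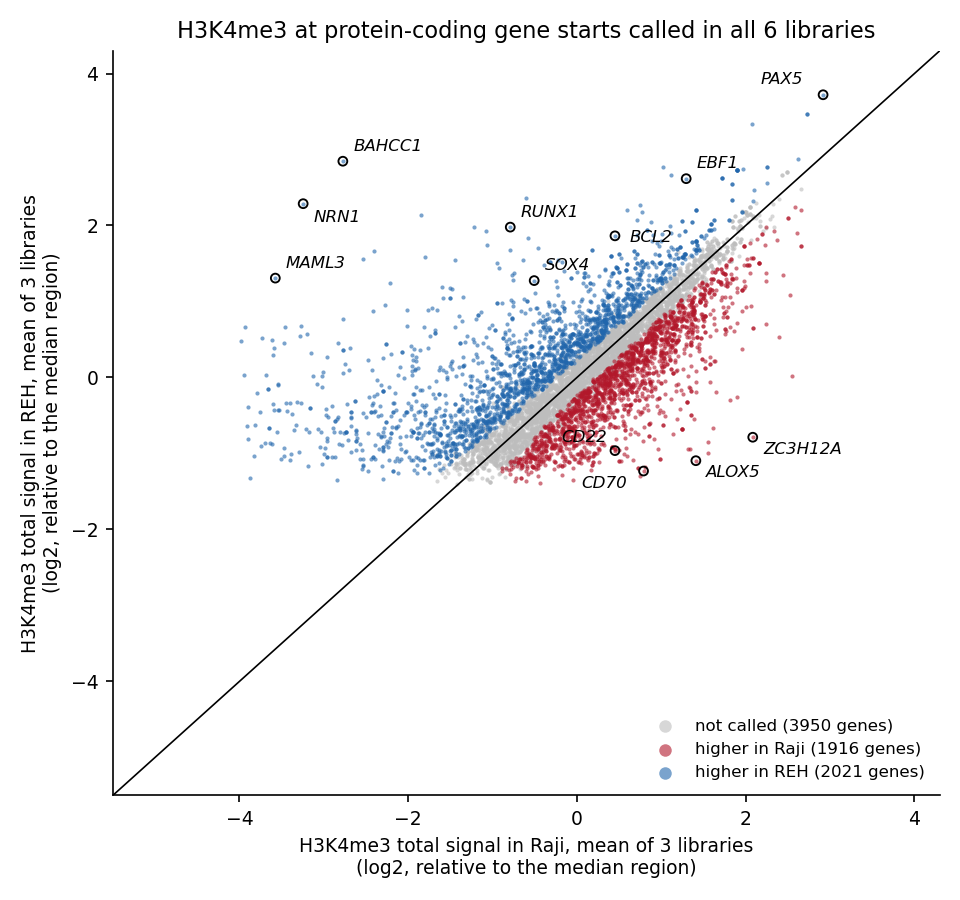
Mean log2 H3K4me3 total of the 3 REH libraries (vertical axis) against that of the 3 Raji libraries (horizontal axis) for genes whose start region was called in all 6 libraries, each relative to the median region, with the diagonal marking equal levels. Genes higher in REH spread far to the left (NRN1, MAML3, BAHCC1), whereas genes higher in Raji stop at a lower edge near the REH listing limit.

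The sequences upstream of 5 starts are given first, as examples that were not ranked by the size of the difference. All 5 lay under a peak in 3 of 3 libraries of one line and 0 of 3 of the other. Each is the 250 bases before the RefSeq start (GRCh38.p14), 5′ to 3′ on the strand of the gene, in lower case with the matches to 1 motif in capitals. IGLL1 and DNTT, marked in REH alone, encode a surrogate light chain component and terminal transferase, which adds untemplated bases to immunoglobulin gene joints. SERPINA9 and BIRC3, marked in Raji alone, encode a serpin of germinal center B cells and an inhibitor of apoptosis that NF-kB induces. CDKN2A, also marked in Raji alone, encodes the p16 and ARF tumor suppressors. For IGLL1 (chr22:23580291-23580540, minus strand) the capitals mark 4 overlapping matches in a pair of blocks to CCCNNGGG, letters bound by EBF1. For DNTT (chr10:96304184-96304433, plus strand) they mark 1 match to CAGGTG, an E box read by E proteins, on the reverse strand. For SERPINA9 (chr14:94476198-94476447, minus strand) they mark 2 matches to the octamer ATTTGCAT bound by OCT1 and OCT2, for BIRC3 (chr11:102317234-102317483, plus strand) 1 match on the reverse strand to GGGNNTTCC, an NF-kB motif, and for CDKN2A (chr9:21995325-21995574, minus strand) its 24 CG dinucleotides.
IGLL1: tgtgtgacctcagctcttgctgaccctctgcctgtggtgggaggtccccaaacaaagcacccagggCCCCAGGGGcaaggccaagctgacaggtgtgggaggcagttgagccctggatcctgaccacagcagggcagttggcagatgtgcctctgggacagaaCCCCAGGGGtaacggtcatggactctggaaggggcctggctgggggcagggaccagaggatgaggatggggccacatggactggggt
DNTT: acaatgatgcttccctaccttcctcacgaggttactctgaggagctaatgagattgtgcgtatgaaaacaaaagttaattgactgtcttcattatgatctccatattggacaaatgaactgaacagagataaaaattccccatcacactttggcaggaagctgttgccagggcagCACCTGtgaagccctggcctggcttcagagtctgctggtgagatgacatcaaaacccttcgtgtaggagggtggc
SERPINA9: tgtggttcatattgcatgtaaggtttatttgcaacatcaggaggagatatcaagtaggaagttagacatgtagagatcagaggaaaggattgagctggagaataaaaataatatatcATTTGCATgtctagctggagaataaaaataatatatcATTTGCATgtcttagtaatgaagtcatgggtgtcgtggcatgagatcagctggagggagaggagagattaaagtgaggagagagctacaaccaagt
BIRC3: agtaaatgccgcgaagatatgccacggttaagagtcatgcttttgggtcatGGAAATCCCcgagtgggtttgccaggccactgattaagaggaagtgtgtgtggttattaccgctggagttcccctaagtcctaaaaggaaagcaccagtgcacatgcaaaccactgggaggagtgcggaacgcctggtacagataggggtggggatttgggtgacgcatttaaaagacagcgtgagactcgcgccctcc
CDKN2A: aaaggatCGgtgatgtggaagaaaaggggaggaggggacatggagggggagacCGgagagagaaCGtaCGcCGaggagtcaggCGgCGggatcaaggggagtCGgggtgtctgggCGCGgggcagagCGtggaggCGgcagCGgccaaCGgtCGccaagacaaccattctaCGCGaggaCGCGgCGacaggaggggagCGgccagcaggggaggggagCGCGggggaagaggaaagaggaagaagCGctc

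These letters are a description of the sequences and not evidence of binding. Among 15315 genes with such a sequence, CCCNNGGG was found on either strand in 19.9%, in 19.1% of 324 Raji-only genes and in 28.2% of 379 REH-only genes. CAGGTG was found in 17%, 22.2% and 14.5%, ATTTGCAT in 1.66%, 1.85% and 1.58%, and GGGNNTTCC in 6.71%, 5.86% and 6.60% of the same groups. The windows differed in composition as well. The median GC content was 70.4% in REH-only and 62.6% in Raji-only genes, beside 66.0% in genes called in all 6 libraries and 55.6% in genes called in none, and GC-rich windows hold more matches to GC-rich letters.

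Of 18 precursor B genes, 7 (38.9%) had a peak in REH only and 0 in Raji only, beside 2.60% and 2.14% of all genes. The 7 that had a shared region were all higher in REH, beside 25.6% of all genes tested. Their median was -0.68, beside -0.01 over all genes tested. The REH totals at IGLL1 were 4.51, 4.73 and 5.81 multiples of the median region, with no peak in any Raji library, and their geometric mean was 67.1 times the Raji listing limit. At DNTT they were 2.63, 2.70 and 2.28 multiples, 34.0 times the limit. LEF1, a Wnt pathway transcription factor of precursor lymphocytes, had 4.75, 4.71 and 4.87 multiples in REH, 64.2 times the limit, and no peak in Raji. For these 3 genes the lines did not overlap, and the REH libraries lay close together.

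The recombinase genes lie side by side on chromosome 11. RAG2, which shares its peak with the start of IFTAP, was marked in REH alone at 1.01, 0.974 and 0.860 multiples, 12.7 times the Raji limit. The peaks at the RAG1 starts summed to 4.65, 4.37 and 5.13 multiples in REH and 0.510, 0.453 and 0.456 in Raji. The shared region there also holds the start of TRAF6, a ubiquitin ligase made by most cells, and in that region alone the difference was -0.57 (SE 0.13, limma adjusted p = 0.00431), so most of the REH signal lay outside the part that Raji shared. The call in that region was lost by mean signal per called base (-0.28, adjusted p = 0.317) and without centering (adjusted p = 0.144). FLT3, a growth factor receptor of progenitors, and ERG, a transcription factor of stem and progenitor cells, were 15.3 and 17.4 times the Raji limit in REH and had no Raji peak. SOX4, a survival factor of precursor B cells, was called in both lines, at 0.695, 0.724 and 0.693 multiples in Raji and 2.39, 2.29 and 2.59 in REH (difference -1.78, SE 0.08, adjusted p = 2.9e-07). VPREB1, the other part of the surrogate light chain, and CD34, a stem cell marker, had no peak in any of the 6 libraries.

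REH also carried marks at genes known to be high in ETV6-RUNX1 leukemia. Of 10 such genes, 7 had a peak in REH only and 0 in Raji only, beside 2.60% and 2.14% of all genes. The 1 with a shared region, TCFL5, was higher in REH (-1.24), as were 25.6% of all genes tested. IGF2BP1, an RNA-binding protein of fetal tissues, had REH totals of 4.57, 4.29 and 4.50 multiples, 59.9 times the Raji limit. SOX11, a neural transcription factor gene seen in some B cell tumors, had 2.74, 2.56 and 2.41 multiples, 34.5 times the limit. PCLO, a presynaptic scaffold, and BIRC7, an inhibitor of apoptosis, followed at 18.4 and 12.7 times. No peak was called at any of these 4 starts in Raji, nor in NALM6, a precursor B line without the fusion.

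**Figure D2:**
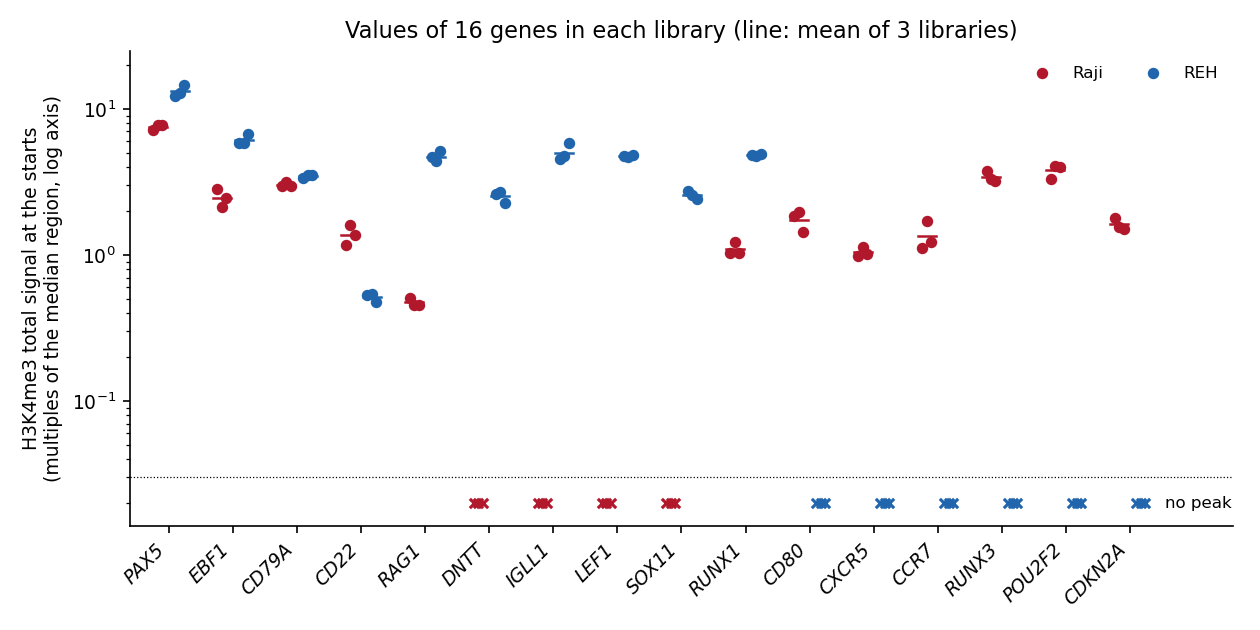
H3K4me3 total at the starts of 16 genes (log axis, multiples of the median shared region), 1 point per library (Raji red, REH blue), with a line at the mean of 3 libraries and crosses below the dotted line for libraries with no peak. DNTT, IGLL1, LEF1 and SOX11 have points in REH alone and CD80, CXCR5, CCR7, RUNX3, POU2F2 and CDKN2A in Raji alone.

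Of 39 mature and germinal center B genes, 17 (43.6%) were called in Raji only, beside 2.14% of all genes, and 0 in REH only. A peak was called in more Raji than REH libraries at 27 of them, beside 2827 of all 19962 genes. The reverse held at 0 of them and at 1509 of all genes. Of the 8 with a shared region, 3 were higher in Raji and 1 in REH (median 0.10), beside 24.3% and 25.6% of all genes tested. How many of the 17 were above the REH listing limit was not counted. Over all genes, 173 of 427 Raji-only genes were above it in all 3 libraries. CD80, CCR7, CD27 and SERPINA9 were named as the highest of the 17 against that limit. CD80, a costimulatory ligand for T cells, had Raji totals of 1.84, 1.97 and 1.44 multiples, 3.94 times the REH listing limit. CCR7, the receptor that guides lymphocytes to the T zone, had 1.12, 1.70 and 1.22 multiples (3.02 times), and CXCR5, the receptor for B cell follicles, 0.986, 1.13 and 1.01 (2.36 times). All 3 were without a peak in the 3 REH libraries.

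CD27, a receptor of memory and germinal center B cells, and SERPINA9 lay 2.80 and 2.64 times above the REH limit, and MS4A1, which encodes CD20, 1.84 times. Among shared starts, MYBL1, a germinal center relative of MYB, was higher in Raji by 1.42 (SE 0.08, adjusted p = 8e-07), and S1PR2, which confines B cells to the germinal center, by 1.37 (SE 0.09, adjusted p = 2.43e-06) in a region that also covers the start of DNMT1, a call that was lost by mean signal per called base (0.31, adjusted p = 0.254). BCL6, the master repressor of the germinal center, had 1.13, 1.15 and 1.16 multiples in Raji and 1.48, 1.29 and 0.707 in REH, a difference of 0.05 (SE 0.23, adjusted p = 0.875). The REH libraries enclosed the Raji ones there, and without REH replicate 3 the difference was -0.27.

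All 36 B lineage transcription factor genes had a peak in some library, whereas 38.5% of all genes had none. Of the 24 with a shared region 4 were higher in Raji and 11 in REH (median -0.20), and 9 were not called. Of all genes tested, 24.3% were higher in Raji and 25.6% in REH. PAX5, which fixes B cell identity, had 7.18, 7.70 and 7.79 multiples in Raji and 12.3, 12.8 and 14.5 in REH (difference -0.80, SE 0.11, adjusted p = 0.00019) in a region at chr9:37022311-37038780 (hg38) over a PAX5 start. The call was lost by highest signal in place of the total (-0.24, adjusted p = 0.345) and with quantile normalization (-0.10, adjusted p = 0.34). EBF1, which opens B lineage enhancers, had 2.83, 2.12 and 2.45 multiples in Raji and 5.85, 5.82 and 6.76 in REH (difference -1.32, SE 0.12, adjusted p = 1.29e-05). The mark there was called over 11.7 kb in REH and 7.99 kb in Raji. By mean signal per called base the difference was -0.57 (adjusted p = 0.0113), and by the highest signal it was 0.27 in the direction of Raji. RUNX1, a partner of the fusion, showed the greatest contrast among the shared starts of the list, with 0.502, 0.680 and 0.566 multiples in Raji and 3.88, 3.82 and 4.12 in REH (difference -2.77, SE 0.11, adjusted p = 1.59e-07). It lies in a part of chromosome 21 whose median difference was -0.45.

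GFI1, a repressor of early lymphoid cells, was also higher in REH (-2.68, SE 0.14, adjusted p = 7.87e-07), as was MYC, the target of the Burkitt translocation. MYC had 2.15, 2.14 and 2.20 multiples in Raji and 3.37, 3.29 and 3.19 in REH (-0.60, SE 0.07, adjusted p = 8.18e-05), and the lines did not overlap. Of the 36 factors, 5 were marked in Raji only and 1, LEF1, in REH only, beside 2.14% and 2.60% of all genes. The 5 included RUNX3, which is induced by Epstein-Barr virus in B cells, with 3.76, 3.33 and 3.20 multiples (7.78 times the REH limit). POU2F2, which encodes the octamer-binding OCT2, had 3.33, 4.06 and 4.02 multiples (8.62 times), and IRF8, a germinal center regulator, lay 3.16 times above the limit. At POU2F2 an H3K27me3 peak was called in 3 of 3 libraries of both lines.

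Of 28 genes of the B cell receptor pathway, 4 were called in Raji only and 0 in REH only, beside 2.14% and 2.60% of all genes. The levels of these 4 are not reported here, so their absence in REH was not read. Over all genes, 173 of 427 Raji-only genes were above the REH listing limit in all 3 libraries. Of 18 pathway genes with a shared region 7 were higher in Raji and 4 in REH (median 0.19), beside 24.3% and 25.6% of all genes tested. CD79A, a signaling chain of the receptor, had 2.94, 3.16 and 2.97 multiples in Raji and 3.35, 3.52 and 3.54 in REH, a difference of -0.20 (SE 0.07) that did not pass the threshold (adjusted p = 0.0506) in a region shared with ARHGEF1, and 0.47 (adjusted p = 0.103) by highest signal. CD79B, its partner chain, was higher in REH by total (-0.50, SE 0.09, adjusted p = 0.00159) but 0.18 in the direction of Raji by highest signal, and it was not called without centering (adjusted p = 0.0715). SYK, the kinase that the chains recruit, was higher in Raji by 1.13 (SE 0.11, adjusted p = 2.07e-05), although its mean signal per called base differed by -0.03. CD72, an inhibitory coreceptor, was higher in Raji by 1.91 (SE 0.12, adjusted p = 2.18e-06) in a region shared with SIT1, and this call was lost by mean signal per called base (0.58, adjusted p = 0.0553). PRKCB, PTPN6 and INPP5D, also among the 7, lost their calls by that measure and without centering.

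For antigens targeted by immunotherapy, 4 of 19 genes were called in Raji only and 2 in REH only, beside 2.14% and 2.60% of all genes. Of 7 with a shared region 3 were higher in Raji and 2 in REH, beside 24.3% and 25.6% of all genes tested. CD22, the antigen targeted by the CAR T cells of the study, had 1.17, 1.61 and 1.36 multiples in Raji and 0.530, 0.539 and 0.472 in REH (difference 1.41, SE 0.13, adjusted p = 1.45e-05) in a region at chr19:35327421-35334220 (hg38). The lines did not overlap, and 6.08 kb was called in Raji against 2.62 kb in REH. By mean signal per called base the difference was 0.40 and was not called (adjusted p = 0.155). CD70, a ligand of CD27, was higher in Raji by 2.02 (SE 0.19, adjusted p = 1.83e-05). FLT3, described above, and SDC1, a plasma cell syndecan at 10.3 times the Raji limit, were the antigens marked in REH only.

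At MHC class II genes, which present peptides to CD4 T cells, a peak was called in more Raji than REH libraries at 11 of 16 genes. Over all 19962 genes this held at 2827, and the reverse at 1509. Of the 16, 3 were called in Raji only and 0 in REH only, beside 2.14% and 2.60% of all genes. A further 7 had a peak in 3 Raji and 1 REH library, and 1 in 3 Raji and 2 REH libraries. The 3 called in Raji only were HLA-DQA1, HLA-DRB5 and HLA-DOB, at 1.03, 0.62 and 0.42 times the REH listing limit. None of them was above that limit in all 3 Raji libraries, so their absence in REH could not be read. Of the 5 with a shared region, 1 was higher in Raji and 2 in REH (median -0.04), beside 24.3% and 25.6% of all genes tested. In 6 of the 7 with a peak in 1 REH library, the level of REH replicate 1 was under the smallest totals listed in the other REH libraries. HLA-DRA, the shared chain of the DR molecule, had 0.160, 0.306 and 0.306 multiples in Raji and 0.173 in REH replicate 1, so the lines overlapped and no difference could be read. HLA-DRB1 had 0.705, 0.907 and 0.764 multiples in Raji and 0.197 in REH replicate 1, below all Raji values. CIITA, the master activator of the class, had 3.74, 4.73 and 4.33 multiples in Raji and 3.52, 3.91 and 3.53 in REH at its starts, and its shared region differed by -0.04 (SE 0.12, adjusted p = 0.82). HLA genes have near-identical copies and many alleles, so reads may be split between them and all HLA values are uncertain.

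MHC class I genes, which present peptides to CD8 T cells, had 0 of 22 members called in one line only and 5 called in none. Over all genes, 2.14% were called in Raji only, 2.60% in REH only and 38.5% in none. Of 15 genes with a shared region, 2 were higher in Raji and 4 in REH (median -0.06), beside 24.3% and 25.6% of all genes tested. HLA-C and HLA-B, which encode class I heavy chains, were higher in REH, with differences of -1.03 (SE 0.19, adjusted p = 0.00131) and -0.70 (SE 0.12, adjusted p = 0.000908). At HLA-C the totals were 0.535, 0.908 and 0.918 multiples in Raji and 1.53, 1.50 and 1.65 in REH, without overlap, but by highest signal the gene was not called (-0.79, adjusted p = 0.0511). PSMB8, also higher in REH, encodes an immunoproteasome subunit and shares a region with PSMB9, and the 2 higher in Raji were TAP2, a peptide transporter (0.40), and PDIA3, a chaperone of the loading complex (0.35). For both of the latter the mean signal per called base pointed to REH (-0.06 and -0.31), and neither was called by highest signal or without centering. PSMB8 was not called by mean signal per called base (-0.41, adjusted p = 0.0797).

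Of 31 ligands of NK and T cells, 6 were called in Raji only and 0 in REH only, beside 2.14% and 2.60% of all genes. Of 14 with a shared region 2 were higher in Raji and 6 in REH (median -0.21), beside 24.3% and 25.6% of all genes tested. ICAM1, the adhesion ligand of LFA-1, had 1.16, 1.53 and 1.32 multiples in Raji, 0.166 in REH replicate 1 and no peak in the other REH libraries. SLAMF1 and CD48, self and costimulatory receptors of the SLAM family, were marked in Raji only at 2.40 and 2.59 times the REH limit, together with their neighbors SLAMF6 and CD84 on chromosome 1, whose levels were below that limit. FAS, a death receptor, was higher in Raji by 1.60 (SE 0.13, adjusted p = 7.76e-06) in a region shared with ACTA2, and TNFRSF10A, a TRAIL receptor, by 1.23 (SE 0.10, adjusted p = 6.97e-06). The NKG2D ligands MICA and ULBP2 were higher in REH. MICA had 0.550, 0.575 and 0.564 multiples in Raji and 1.60, 1.62 and 1.64 in REH (-1.53, SE 0.08, adjusted p = 7.26e-07), and ULBP2 differed by -2.38 (SE 0.33, adjusted p = 0.000255). The ULBP2 levels lay near the listing limits, at 0.0534, 0.143 and 0.114 multiples in Raji and 0.532, 0.524 and 0.445 in REH. ULBP2 could not be tested in the treated libraries, and H3K27me3 was called there in 2 of 3 untreated libraries of both lines.

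Of 30 NF-kB pathway genes and targets, 5 were called in Raji only and 0 in REH only, beside 2.14% and 2.60% of all genes. Of 15 with a shared region 4 were higher in Raji and 1 in REH (median -0.06), beside 24.3% and 25.6% of all genes tested. BIRC3 had Raji totals of 2.07, 1.99 and 1.87 multiples, 4.50 times the REH limit, and no REH peak. NFKBIZ, a nuclear IkB protein, was higher in Raji by 1.62 (SE 0.10, adjusted p = 1.57e-06), NFKBIE, an inhibitor, by 0.80 (SE 0.08, adjusted p = 3.82e-05) and NFKB2, a subunit, by 0.72 (SE 0.07, adjusted p = 3.94e-05, but -0.06 by mean signal per called base). NFKBIE lost its call by that measure (0.38, adjusted p = 0.0943), and both lost it without centering. TNFAIP3, the A20 feedback inhibitor, was higher in REH (-0.59, SE 0.09, adjusted p = 0.000528). The subunits REL, RELA and NFKB1 differed by 0.06 (SE 0.10), -0.21 (SE 0.10) and -0.06 (SE 0.08), none past the threshold.

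Genes of the BCL2 family set the threshold of apoptosis, and of 11 shared members 3 were higher in each line (median 0.12), close to the shares of all genes tested (24.3% and 25.6%). BCL2 itself had 1.26, 1.54 and 1.31 multiples in Raji and 3.65, 3.56 and 3.71 in REH (-1.41, SE 0.09, adjusted p = 1.82e-06), whereas BCL2L1, which encodes BCL-XL, had 2.92, 4.39 and 3.39 multiples in Raji and 1.58, 1.62 and 1.54 in REH (1.16, SE 0.13, adjusted p = 7.18e-05). The lines did not overlap at either gene, and the 10 Mb of chromosome 20 around BCL2L1 had a median difference of 0.44. BIK and BCL2A1, an activator and an inhibitor of cell death, were called in Raji only at 2.25 and 1.39 times the REH limit. Of 34 chemokine, homing and adhesion genes, 5 were called in Raji only and 0 in REH only, beside 2.14% and 2.60% of all genes. Among 9 shared, 2 were higher in each line (median -0.04), close to the shares of all genes tested (24.3% and 25.6%). CXCR4, the receptor for bone marrow niches, was higher in REH (-0.50, SE 0.10, adjusted p = 0.00178). The CXCR4 call was lost by mean signal per called base (-0.10, adjusted p = 0.705) and without centering (adjusted p = 0.0834).

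Of 40 interferon-stimulated genes, 12 had no peak in any library, beside 38.5% of all genes. In REH only 5 were called and in Raji only 0, beside 2.60% and 2.14% of all genes. Of 8 with a shared region 2 were higher in Raji and 6 in REH (median -0.85), beside 24.3% and 25.6% of all genes tested. The antiviral genes IFITM3, HERC5 and RSAD2 reached 13, 9.67 and 9.60 times the Raji limit in REH, RSAD2 in a peak shared with CMPK2. IFIT5, in a region shared with LIPA, and EIF2AK2, which encodes the kinase PKR, were higher in REH (-1.68, SE 0.18, adjusted p = 4.24e-05, and -1.66, SE 0.20, adjusted p = 0.000105). BST2, a tether of viruses, and IFIH1, an RNA sensor, were higher in Raji (0.96, SE 0.17, adjusted p = 0.0014, and 0.69, SE 0.14, adjusted p = 0.0023).

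HOX genes, which pattern the body axis and the early blood system, were unmarked for the most part. Of 41 genes, 28 had no peak in any library, beside 38.5% of all genes. HOXA4, HOXA9 and HOXA13 were called in REH only at 16.5, 15.3 and 8.47 times the Raji limit, and the region shared by HOXA3 and HOXA6 was higher in REH (-1.49, SE 0.20, adjusted p = 0.000196), a call lost by mean signal per called base (-0.43, adjusted p = 0.311). From the HOXB cluster, HOXB3 and HOXB4 shared a peak in Raji only, at 1.70 times the REH limit, and H3K27me3 was called there in 2 of 3 libraries of both lines.

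Cell cycle inhibitors and tumor suppressors included a gap in the marks of REH on chromosome 9. Of 19 genes, 4 were called in Raji only and 1 in REH only, beside 2.14% and 2.60% of all genes. Of 11 shared members 3 were higher in Raji and 6 in REH (median -0.22), beside 24.3% and 25.6% of all genes tested. CDKN2A had 1.79, 1.56 and 1.51 multiples in Raji, 3.68 times the REH limit, and MTAP, its neighbor in methionine salvage, 0.830, 0.719 and 0.705 (1.70 times), both with no peak in REH. Between the starts of FOCAD (chr9:20658309) and CAAP1 (chr9:26840685), 6.18 Mb with 26 protein-coding genes, 5 genes were called in Raji only (FOCAD, KLHL9, MTAP, CDKN2A and CDKN2B), and each Raji H3K4me3 library listed 5 peaks. No REH or NALM6 H3K4me3 library and no REH H3K4me2 library listed any peak there, whereas the REH H3K4me3 libraries listed 11, 9 and 10 peaks in the preceding and 9, 3 and 7 in the following stretch of equal length. REH H3K27me3 peaks were listed in it, 69, 8 and 2 against 178, 43 and 21 before it. DNA copy number was not measured, and its part in this gap was not tested. This interval was chosen after its values were seen.

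The single starts that differed by the greatest amount were mostly not in these lists. Among shared regions whose 3 libraries of a line all lay above the other 3, the greatest differences toward Raji were at ZC3H12A, an RNase that restrains inflammatory transcripts (2.87, SE 0.10, adjusted p = 1.11e-07), IQSEC1, an exchange factor for ARF6 (2.56, SE 0.18), SH2B2, an adaptor of receptor kinases (2.52, SE 0.08), ALOX5, the first enzyme of leukotriene synthesis (2.50, SE 0.10), and CNN2, a calponin (2.40, SE 0.09). ZC3H12A had 3.69, 4.64 and 4.46 multiples in Raji and 0.620, 0.566 and 0.555 in REH. SMAD7, AK4, ECE1 and TMEM30A followed at 2.28, 2.25, 2.15 and 2.11, and PRKCD, which encodes the protein kinase C isoform delta, at 2.27 in a part of chromosome 3 with a median of 0.91. REH replicate 3 at SMAD7 was 0.270 multiples beside 0.735 and 0.715 in the other REH libraries.

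Toward REH the greatest differences were at BAHCC1, a chromatin reader (-5.62), NRN1, a neurite growth factor (-5.53, SE 0.14, adjusted p = 1.89e-08), MAML3, a Notch coactivator (-4.88), LENG9 (-4.59), PKN3, a serine/threonine kinase (-4.47), VWCE (-4.25), MEX3D (-4.12), RAB43 (-4.11), TGIF1, a repressor of TGF-beta signaling (-4.09), and FADS1, a fatty acid desaturase in a region shared with FADS2 (-4.07). NRN1 had 0.0842, 0.118 and 0.118 multiples in Raji and 5.13, 4.92 and 4.61 in REH. At all 10 of these genes the Raji level was below the REH listing limit, a depth that no REH value in a shared region could reach in all libraries.

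Of starts called in one line alone, those with the highest totals in Raji were CTSZ, a lysosomal cathepsin, with 4.19, 4.41 and 4.84 multiples (10.2 times the REH limit), POU2F2, RUNX3, RHOH, a small GTPase of blood cells (7.03 times), FKBP14 and PLEKHA8, which share a peak (6.83 times), and KCNN3, a potassium channel (6.23 times). ODF3B, ZBTB32 and ENSG00000271698 met the same rule by their starts, but their peaks belonged to merged regions in which REH also had peaks more than 1 kb away, and no multiple is given for them. In REH they were CBFA2T3, a corepressor of hematopoietic progenitors, with 7.6, 8.09 and 7.6 multiples (104 times the Raji limit), EGFL7, the host of a hematopoietic microRNA (88.0 times), ELFN1, a postsynaptic protein (86.7 times), IGLL1, LEF1, CHST15, a sulfotransferase also expressed in B cells (61.9 times), and IGF2BP1. BAHCC1, KCNN1 and LKAAEAR1 were counted there too, with Raji peaks elsewhere in their merged regions. CBFA2T3, EGFL7 and CHST15 had a NALM6 H3K4me3 peak in 3 of 3 libraries and ELFN1 in 0.

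Genes of other tissues served as a check on the cells. Of 7 B lineage markers, 7 had a peak in at least 2 Raji and 6 in at least 2 REH libraries. Of 7 precursor B markers these numbers were 2 and 5, and of 7 mature B markers 7 and 2. RAG1 counted for Raji only by the region that also covers the TRAF6 start. S1PR2 counted for REH only by the region that also covers the DNMT1 start. Of 11 T and NK markers, 0 were marked in Raji and 1 in REH, BCL11B, at 1.04, 1.00 and 0.764 multiples. CD3D, CD3E, CD3G, CD2, CD4 and GNLY had no peak in any library. The summed level of the T and NK list was 0 to 0.0372 multiples in Raji and 0.764 to 1.35 in REH. None of 7 myeloid and none of 3 erythroid markers were marked in 2 or more libraries of a line, with CD14, CD33, MPO, LYZ and CEBPA among those with no peak at all. Over longer lists, 16 of 22 T and NK, 17 of 21 myeloid and erythroid and 11 of 13 epithelial and stromal genes had no peak in any library, beside 38.5% of all genes. Of 68 ribosomal protein genes with a shared region, which every cell transcribes, 49 were not called, 10 were higher in Raji and 9 in REH (median 0.04). These shares were below those of all genes tested (24.3% and 25.6%). RPL11 was the farthest toward Raji (0.94, SE 0.13, not called without centering) and lies in a part of chromosome 1 with a median of 0.45.

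The differences were not spread evenly over the genome. The median of all regions of a chromosome was 0.34 on chromosome 7, where 185 of 334 regions were higher in Raji and 44 in REH, and 0.39 on chromosome 20 (113 and 23 of 185). It was -0.55 on chromosome 21 (6 and 48 of 78), and between -0.17 and 0.07 on the other 20 chromosomes. Of 119 stretches of 10 Mb with at least 20 regions, 7 had a median beyond 0.5 in size: chromosome 8 at 20 to 30 Mb (-1.04) and 30 to 40 Mb (-1.05), chromosome 21 at 40 to 50 Mb (-0.61), chromosome 1 at 0 to 10 Mb (0.56), chromosome 7 at 40 to 50 Mb (0.55), and chromosome 3 at 40 to 50 Mb (0.75) and 50 to 60 Mb (0.91). The stretches were drawn after the data were seen. Of 11 runs of at least 3 neighboring genes all over 1 higher in Raji, 6 lay on chromosome 3, among them PRKCD, TKT and DCP1A, with TKT an enzyme of the pentose phosphate pathway. TNFRSF10A was higher in Raji although its stretch of chromosome 8 was -1.04. Within-chromosome centering left 1504 regions higher in Raji and 1812 in REH. DNA copy number was not measured in these lines, and its part was not tested.

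**Figure D3:**
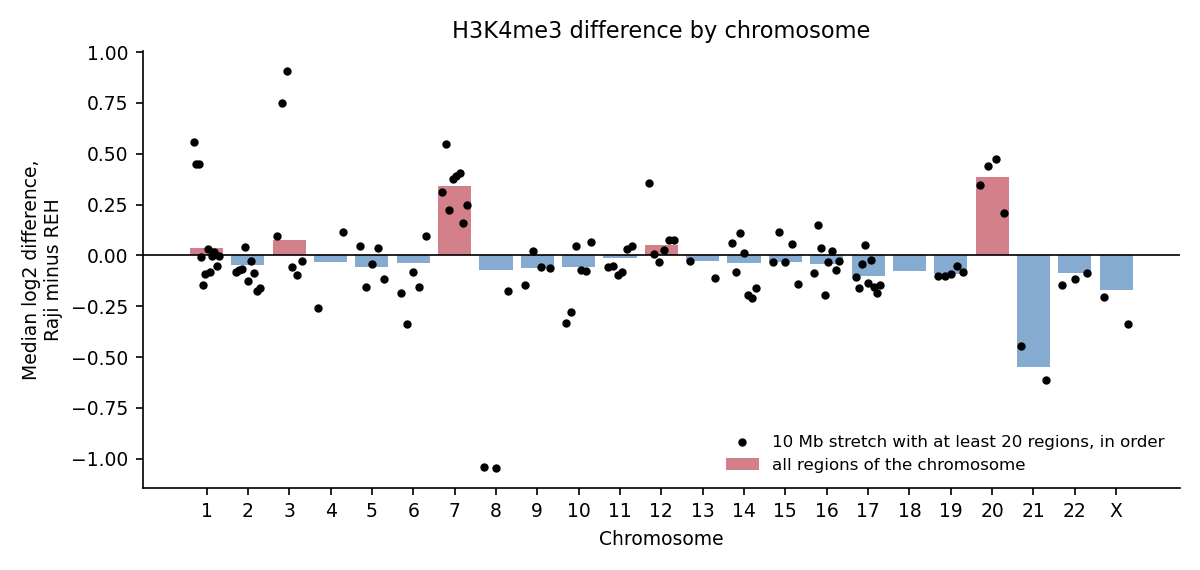
Median log2 difference (Raji minus REH, vertical axis) of the shared regions of each chromosome (bars, red above 0 and blue below) and of its 10 Mb stretches with at least 20 regions in order along it (points). Chromosomes 7 and 20 lie at 0.34 and 0.39 and chromosome 21 at -0.55, and stretches of chromosomes 3 and 8 lie apart from the rest of their chromosomes.

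The called length of a shared region was compared as a second measure of the same peaks. Length was greater in Raji at 186 regions (2.76%) and in REH at 48 (0.713%) by limma, with a median difference of 0.16 on the log2 scale toward Raji. The smallest totals listed differed between libraries as given above, and their part in the lengths was not tested. PAX5 was covered over 15.6 kb in Raji and 15.9 kb in REH, among the widest starts of both lines, so its higher total in REH came with nearly the same width.

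The other marks of the same lines were read at the starts called in one line only, as the number of libraries with a peak, with no test. Of the 427 Raji-only genes, 91.8% had an H3K4me2 peak in at least 2 of 3 Raji libraries and 20.1% in REH. Of the 519 REH-only genes, 99.6% had one in REH and 7.71% in Raji, and the shares over all genes were 53.3% in Raji and 56.8% in REH. H3K27me3 was called in Raji at 39.3% of REH-only and 23.4% of Raji-only genes (16.2% of all genes), and in REH at 23.2% of Raji-only and 17.3% of REH-only genes (13.3% of all). The H3K27me3 libraries were uneven, with 32 to 3221 peaks on chromosome 9 in Raji. In NALM6, the other precursor B line, 58.4% of REH-only and 22% of Raji-only genes had an H3K4me3 peak, beside 51.5% of all genes. IGLL1, LEF1 and DNTT were among those marked in 3 of 3 NALM6 libraries.

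**Figure D4:**
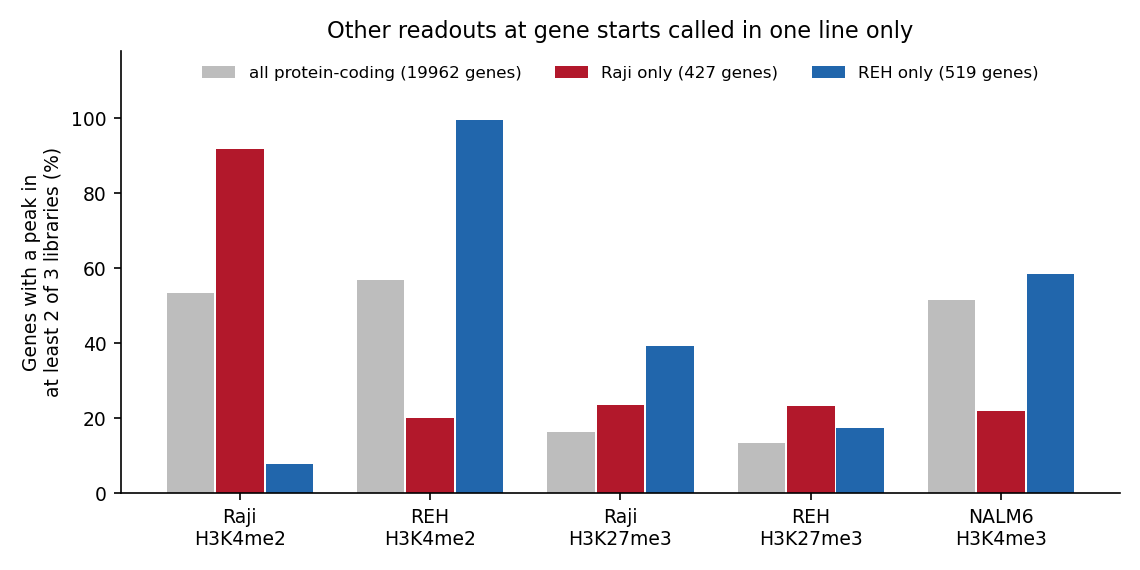
Share of genes with a peak in at least 2 of 3 libraries (vertical axis, %) of H3K4me2 and H3K27me3 in Raji and REH and of H3K4me3 in NALM6, for all protein-coding genes (gray), Raji-only (red) and REH-only genes (blue). H3K4me2 follows the line (91.8% against 20.1% and 99.6% against 7.71%), and NALM6 marks 58.4% of the REH-only genes.

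The contrast was repeated in libraries that the choice of genes did not use, the 3 Raji and 3 REH H3K4me3 libraries from bryostatin-treated cells. There, 1590 of 6414 regions (24.8%) were higher in Raji and 1857 (29.0%) in REH. Of 1835 genes higher in untreated Raji that could be tested, 1550 (84.5%) were called higher in treated Raji, and of 1895 higher in untreated REH, 1641 (86.6%) were called higher in treated REH, with 0 called in the opposite direction in both groups. Presence in one line alone held in all 3 libraries of that line and none of the other for 329 of 427 Raji-only and 483 of 519 REH-only genes. PAX5, CD22, RUNX1 and BCL2 differed by -0.67, 1.27, -2.64 and -1.06 after treatment. At CD74, the class II chaperone, the difference of -0.30 (SE 0.08, adjusted p = 0.0137) in untreated cells was -0.02 in treated cells, and it was not called without Raji replicate 3 (-0.26, adjusted p = 0.0577), without REH replicate 2 (-0.31, adjusted p = 0.0524), without centering or with centering within chromosomes, and at BCL6 it was -0.48. The treated cells were the same 2 lines, so the repeat bears on the libraries and not on the diseases.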

How the data were processed

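CUT&Tag libraries of untreated Raji and REH cells (H3K4me3, 3 each) were analyzed. Per the labels and the methods, the authors trimmed reads with Trim Galore after bcl2fastq, aligned them to hg38 with Bowtie2, scaled coverage to RPKM in 10 bp bins and called peaks per library with SEACR in stringent mode. A further tool named there, for differential testing, was not used here. Versions are not given in the sources used here. The deposited peak files hold, per peak, its total signal (column 4, RPKM summed over bases) and its highest signal, and signal outside peaks was not used here. RPKM scaling fixes each library's total, so a global change in the mark could not be seen. SEACR lists no peak under a total that differs between libraries, which limits weak starts most.

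Peaks overlapping by at least 1 bp were merged. Totals per region were set to log2 with no pseudocount, centered on each library's median over the regions called in all 6 libraries and fitted with limma 3.58.1 in R 4.3.3 (lmFit, eBayes with trend), with Benjamini-Hochberg adjustment over all 6729 regions and a threshold of 0.05. Levels are multiples of the median region. They grow with called length and are compared between lines, not between genes. Values given as times a listing limit use the geometric mean of the 3 libraries of the line with the peak. A gene took the peaks within 1 kb of any start in GENCODE release 44 and, for the fit, its strongest shared region. Genes at 1 region share its value. Single values were compared by two-sided exact permutation. Simulated data over 6729 regions held 100 changes of each of 2 sizes, with noise drawn independently for each region. There, 44% of changes of 0.5 and 87% of changes of 1 on the log2 scale were recovered, with 7 false among 138 calls. Far more regions were called in the data, so these rates need not hold for them.

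Named genes were the 10 of greatest difference in each direction among separated calls, the 10 of highest total called in one line only, at most 6 per list of the 19 gene lists, and 12 genes in any case. Other list members were chosen after their values were seen, to complete a count. The comparison, the lists and the named members were chosen with earlier results of these data known. Promoter sequences are RefSeq's (GRCh38.p14). Python 3.11.15, pandas 2.3.3, numpy 2.4.6 and matplotlib 3.10.9 were used. Alternatives changed the signal measure, centering, merging, filter, window, peak number, variance trend, replicate block and libraries. Some named genes are not reported here.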

Additional observations from a re-analysis of the deposited data

How the results depend on the processing

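The region and gene counts depended on centering and on the measure of signal, with more regions higher in REH under each setting below but quantile normalization. By highest signal in place of the total, 723 regions (821 genes) were higher in Raji and 1005 (1044 genes) in REH, and by mean signal per called base 627 (723 genes) and 923 (945 genes). Without centering the counts were 200 (226 genes) and 895 (924 genes). Over the stronger regions by signal, with 3364 tested, they were 846 (1059 genes) and 892 (1124 genes), with fewer regions to call. Quantile normalization gave 1857 and 1706 regions. Other filters, merging across 500 bp, no variance trend and centering within chromosomes stayed within 1.5 times the counts reported. At an equal 7509 peaks per library, 781 genes were called in Raji only and 848 in REH only, of which 190 and 480 were among the 427 and 519. Among the stronger peaks of the line that had them, 114 and 179 were. Raji-only genes above the REH listing limit, chosen after seeing the data, numbered 173.

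Leaving out each library in turn gave 1326 to 1795 regions higher in Raji and 1581 to 2054 in REH, 1576 to 2138 and 1701 to 2262 genes, and 519 to 735 REH-only genes. Raji-only genes ranged from 427 to 1385, the latter without REH replicate 1. Regions longer in Raji ranged from 89 to 376 and in REH from 28 to 107. The treated comparison ranged from 1367 to 1788 and from 1571 to 2128 regions. The difference in the share of genes with a peak ranged from -0.711 to 7.27 percentage points, in called length from 1.17 to 7.66 Mb and in peaks from 488.5 to 2638. These last 3 sets were added after seeing the data.

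Same-numbered libraries of the lines deviated together with r of -0.11, 0.303 and 0.085, which does not pair them. With a replicate block, 1589 regions were higher in Raji and 1812 in REH (1905 and 1976 genes).

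For 80 named genes, 1249 values under alternatives held 1160 on the same side of the threshold, 73 with the call lost, 3 with a call gained and 13 with the opposite sign where either value passed. Of the 1160, a further 10 had the opposite sign without passing, at BCL6, ENSG00000271698, CD79A and ZBTB32. The 13 were, by highest signal, LKAAEAR1 (0.31), CD79B (0.18) and EBF1 (0.27). By mean signal per called base they were SYK (-0.029), TAP2 (-0.058), PDIA3 (-0.31), NFKB2 (-0.059), CCND3 (0.00), BTG1 (-0.31), PMAIP1 (-0.14), ODF3B (-0.30) and LKAAEAR1 (0.49). The last was BCL6, which ranged from -0.27 without REH replicate 3 to 0.26 without REH replicate 1. The cause was not tested.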

Other observations

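The widest starts of each line, chosen after their values were seen and given with no test, were not the starts of its lineage lists, apart from PAX5. In Raji, TFEB, a master regulator of lysosome genes, was covered over 16.4 kb, beside 3.28 kb in REH, and PIK3CD, the delta isoform of the PI3 kinase of lymphocytes, over 14.5 kb, beside 5.14 kb. In REH, GRK2, a kinase that desensitizes G protein-coupled receptors, was covered over 21.3 kb, beside 6.99 kb in Raji, and TSPOAP1 over 16.8 kb, beside 13.3 kb.

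Neighboring genes were called in one line together at 6 places in Raji and 5 in REH, each of at least 3 genes in a row and also chosen after the values were seen. In Raji they included PKIA, ZC2HC1A and IL7 on chromosome 8, where IL7 encodes a cytokine of precursor lymphocytes. In REH they included SOX11, CMPK2, RSAD2 and RNF144A on chromosome 2, SNRPN and SNURF on chromosome 15, which are imprinted and share a start region, and HAP1, JUP, P3H4 and FKBP10 on chromosome 17. JUP, which encodes plakoglobin, had a NALM6 H3K4me3 peak in 3 of 3 libraries and HAP1 in 0.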
